A study of Mus musculus with 17 samples.

Results

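The RNA of intraflagellar transport (IFT) and BBSome genes was followed through 5 consecutive stages of mouse spermatogenesis. The 35 genes were taken by symbol from the deposited gene table, and all 35 were found among its 24594 genes. They are the 6 subunits of IFT-A, 11 of the IFT-B core (IFT-B1), 6 of the peripheral IFT-B module (IFT-B2), 7 BBSome subunits, 3 chaperonin-like genes that assemble the BBSome, and Arl6 and Lztfl1, which recruit and regulate it. All 35 passed the filter for testing, which asked for 1 RPKM (reads for each kilobase of exon in each M, or mega, of library reads) in at least 3 of 15 libraries. Cells were sorted by flow cytometry from collagenase- and trypsin-dissociated testes after staining with Hoechst and SYTO 16. Each stage had 3 libraries. LZ stands for spermatocytes in leptotene or zygotene and PD for those in pachytene or diplotene. RS are round spermatids, while EES and LES are elongating spermatids of an early and a late stage. All 15 were labelled as wild-type C57BL/6JRj males of 3 months, and no group carried a treatment. Single libraries, stained with Hoechst alone, came from round spermatids of juvenile mice at 23 days post partum (RS23) and from elongating spermatids sorted by a Prm1-EGFP reporter (PrmES), a transgene driven by a protamine promoter that is active in spermatids. Both carry the same labels for strain, age and genotype as the others, so their titles were followed. The labels do not say that libraries of a stage came from separate animals, so the spread that the p-values rest on is that of these libraries and may be technical.

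Intraflagellar transport carries tubulin and membrane cargo along the microtubules of a growing cilium or flagellum. Trains of IFT-B, which kinesin moves towards the tip, carry IFT-A, which is needed for the return with a dynein motor, and the BBSome is a cargo adaptor that rides on these trains and moves membrane proteins. In the testis the sperm tail is built by this machinery: the axoneme begins to grow in early round spermatids, and male mice lacking Ift88, Ift20 or Ift140 in germ cells, or lacking Bbs2 or Bbs4, form defective or no sperm tails. Transcription stops in elongating spermatids as histones are replaced, so RNA found there was largely made earlier and is stored. Regulatory factor X (RFX) proteins bind X-box motifs in promoters of ciliary genes, and Mybl1 is the MYB factor of pachytene spermatocytes.

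The promoters of 6 of the genes are shown as examples with and without an X-box match. They were chosen after levels and matches were seen, and are not a sample of the genes that share a pattern. Ift140, Ift22, Ift57 and Bbs7 rose in pachytene/diplotene spermatocytes and fell in elongating spermatids, Bbs5 rose in spermatids, and Ift172 rose in pachytene/diplotene spermatocytes and was kept in elongating spermatids. Each line gives the 150 bases before the annotated start, 5′ to 3′ on the gene's strand, from RefSeq (GRCm38.p6), with X-box matches on either strand in capitals.
Ift140 (chr17:25015936-25016085, plus strand): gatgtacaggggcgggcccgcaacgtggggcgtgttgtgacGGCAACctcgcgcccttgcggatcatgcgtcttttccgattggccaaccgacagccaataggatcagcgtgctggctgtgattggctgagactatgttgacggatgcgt
Ift22 (chr5:136908000-136908149, plus strand): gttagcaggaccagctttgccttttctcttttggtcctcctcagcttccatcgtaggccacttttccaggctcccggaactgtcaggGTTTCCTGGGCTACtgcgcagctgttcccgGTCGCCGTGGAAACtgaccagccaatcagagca
Ift57 (chr16:49699144-49699293, plus strand): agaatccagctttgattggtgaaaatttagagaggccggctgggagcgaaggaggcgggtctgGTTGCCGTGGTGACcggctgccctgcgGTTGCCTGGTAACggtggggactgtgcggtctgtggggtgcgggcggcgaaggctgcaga
Bbs7 (chr3:36613390-36613539, minus strand): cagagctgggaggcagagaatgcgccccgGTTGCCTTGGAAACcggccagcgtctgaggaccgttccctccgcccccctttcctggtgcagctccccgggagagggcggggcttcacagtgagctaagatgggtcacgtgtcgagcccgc
Bbs5 (chr2:69647021-69647170, plus strand): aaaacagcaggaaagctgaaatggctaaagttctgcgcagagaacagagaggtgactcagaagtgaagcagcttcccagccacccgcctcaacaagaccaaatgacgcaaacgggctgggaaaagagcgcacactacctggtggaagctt
Ift172 (chr5:31291115-31291264, minus strand): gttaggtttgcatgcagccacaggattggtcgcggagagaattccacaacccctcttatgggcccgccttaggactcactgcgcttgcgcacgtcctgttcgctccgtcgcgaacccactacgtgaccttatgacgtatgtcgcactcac
A full X-box was taken as GTNNCC followed after 1 to 3 bases by its inverted repeat GGNNAC, and a half-site as GTTGCC or its reverse complement GGCAAC, which can lie inside a full one. Both strands were searched over 250 bases before to 50 bases after the start, a window available for 31 of the 35 genes and for 27025 genes in all. A full X-box was found in 8 of the 31 (25.8%), which are Bbs1, Bbs4, Bbs7, Ift22, Ift57, Lztfl1, Ttc26 and Wdr19, against 4% of all genes. Ift22, Ift57 and Lztfl1 held 2 of them each. A half-site was found in 12 of the 31 (38.7%), against 14.1% of all genes. The MYB motif AACNGNC was found in 17 of the 31 (54.8%), against 36% of all genes. These counts are descriptions of letters in a window, and matches were not tested as binding sites.

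Library totals were 90.6 to 137.8 M reads in the 5 stages, 159.2 M in RS23 and 149.2 M in PrmES, and the lowest count behind any of the 35 genes in the 15 libraries was 20 reads (Mkks). The PD markers Piwil1, Pou5f2 and Ccna1 summed to 340 to 384 RPKM in PD, against 11.9 to 81.5 in LZ, where the highest value was that of replicate 3. Their sum in RS, 267 to 331 RPKM, was close to that in PD through Ccna1, at a mean of 273.9 RPKM in RS and 111.9 in PD, whereas Piwil1 (14.9 RPKM in RS, 112.3 in PD) and Pou5f2 (3.23 RPKM in RS, 130.9 in PD) were lower in RS. The RS markers Acrv1 and Spaca1 summed to 4.16, 17 and 249 RPKM over the EES libraries, the highest being replicate 2, and to 82.4 to 97.3 RPKM in RS. LZ replicate 3 and EES replicate 2 stood apart in the same way over all genes: EES replicate 2 correlated with RS at a Spearman rho of 0.788 to 0.822, against 0.612 to 0.707 for the other EES libraries, and LZ replicate 3 with PD at 0.69 to 0.714, against 0.512 to 0.564 for the other LZ libraries. LZ replicate 3 was the highest LZ library for 32 of the 35 genes (not for Hspb11, Mkks and Bbs12), and EES replicate 2 the highest EES library for 32 (not for Wdr19, Ift172 and Bbs9). Calls are therefore given with and without these libraries where they changed. Without EES replicate 2 the EES mean moved by over 1.5 times for 22 of the 35 genes, most for Ift43, and without LZ replicate 3 the LZ mean did so for 6 (Ift27, Ift43, Ift140, Ift172, Ttc21b and Ttc30a1). Means and sums below include all 3 libraries of a stage unless stated.

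Most IFT and BBSome genes were highest in PD or RS and lowest in elongating spermatids. The highest stage mean of 13 of the 35 genes was in PD and that of another 13 in RS, whereas 5 peaked in LZ, 2 in EES (Bbs5 and Cluap1) and 2 in LES (Ift172 and Bbs9). Of the 5 that peaked in LZ, Ift88 and Ttc26 did not when LZ replicate 3 was left out. Bbs1, at 6.59 RPKM in LZ without it, was then level with PD. Of all 13260 genes tested, 37.9% peaked in LZ, 21.6% in PD, 20.7% in RS, 8.42% in EES and 11.3% in LES. LES held the lowest mean of 21 of the 35, EES that of 8, LZ that of 4 and PD that of 2. The lowest stage was not counted over all genes tested, of which 55.4% were called lower in LES vs RS. The order of EES and LES rests on EES replicate 2. Without it, all of these 21 but Ift122 had an EES mean below their LES mean. For Ift43 the EES mean was then 2.45 RPKM, against 3.89 in LES, and for Ift122 it was 20.6, against 19.4. Summed over the 35 genes, the level was 420.4 ± 149 RPKM in LZ, 943.5 ± 22 in PD, 914.9 ± 22.4 in RS, 375.5 ± 112 in EES and 328.3 ± 30.2 in LES (SD, n = 3 libraries, here and below). Without LZ replicate 3 the LZ sum was 335.5 RPKM, and without EES replicate 2 the EES sum was 311.1 RPKM. An F test over the stages in limma called 34 of the 35 changed, all but Cluap1, whose stage means spanned 0.80 on the log2 scale; of all genes tested 97.2% were called. A call here and below needs a log2 difference of at least 1 and a p under 0.05 after Benjamini-Hochberg adjustment across all tested genes.

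**Figure D1:**
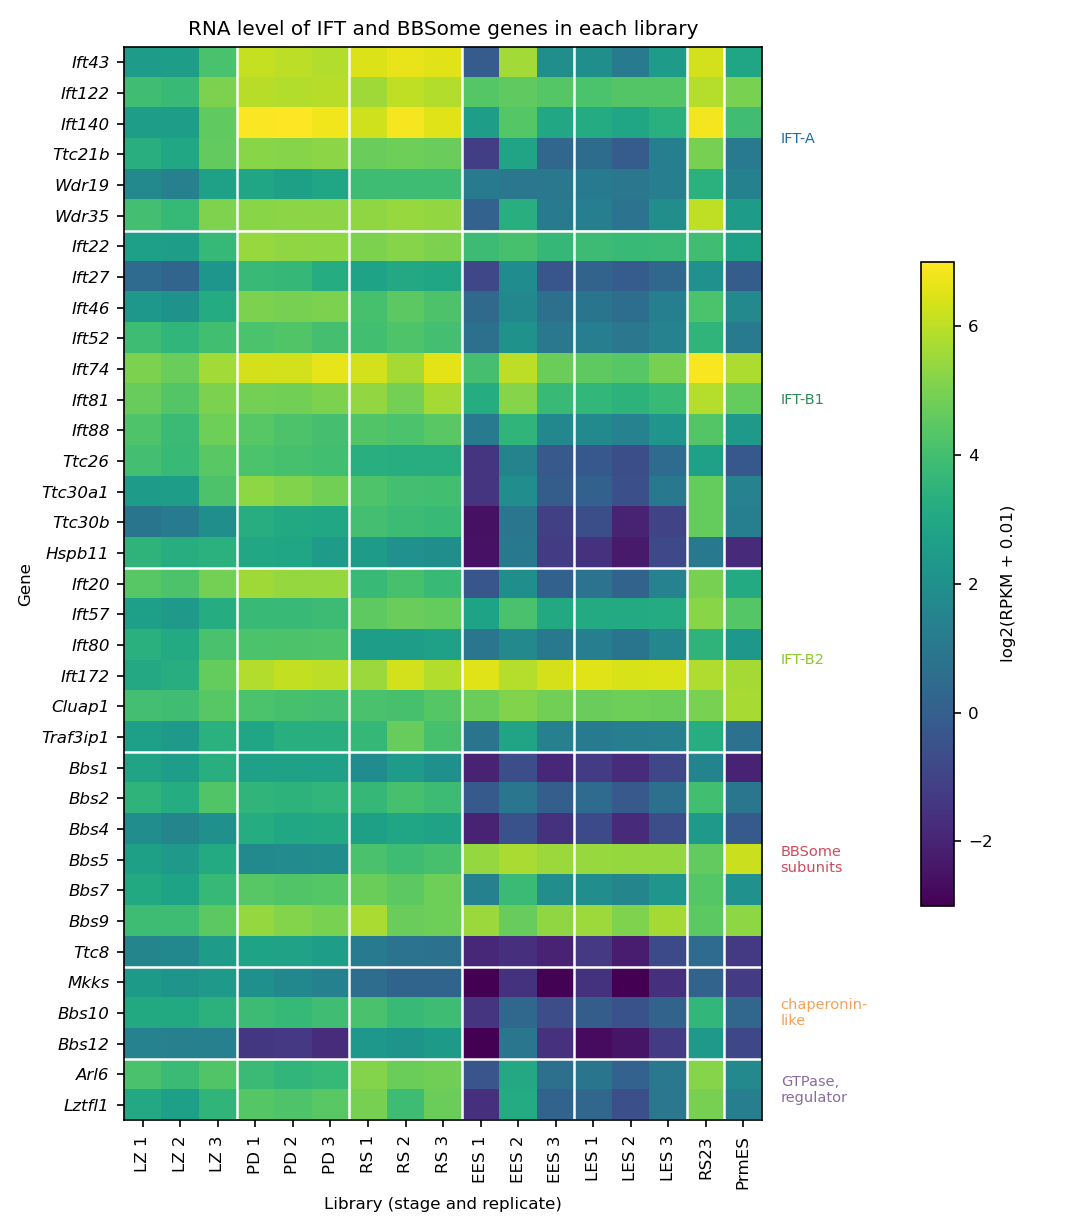
RNA level of the 35 genes (rows, grouped by complex) in each of the 17 libraries (columns), as log2 of RPKM plus 0.01; the colour scale runs over the range shown on its bar, and values below it take the darkest colour. Most rows are brightest in PD and RS and dark in EES and LES, whereas Ift172, Cluap1, Bbs5 and Bbs9 stay bright; LZ 3 and EES 2 differ from the other libraries of their stage.

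All 6 IFT-A genes were lower in elongating spermatids than in RS. Ift122, Ift140 and Wdr19 form the core of the complex and Ift43, Ttc21b and Wdr35 its periphery. Their summed level was 80.8 ± 49.3 RPKM in LZ, 326.2 ± 11.5 in PD, 331.8 ± 38.6 in RS, 60.3 ± 44.6 in EES and 38.6 ± 5.13 in LES. Without LZ replicate 3 the LZ sum was 52.4 RPKM, and without EES replicate 2 the EES sum was 34.6 RPKM. Ift140, the highest of the 6 over the 15 libraries (chromosome 17, 25016083 to 25099499, GRCm38.p6), was at 5.84, 6.06 and 23.9 RPKM in LZ, 123, 127 and 109.5 in PD, 77.6, 117 and 90.9 in RS, 5.98, 20.4 and 8.07 in EES and 8.78, 7.54 and 10.2 in LES. Every PD and RS library thus stood above every library of the other stages. Ift43 was at 5.53, 5.98 and 17.3 RPKM in LZ, 69, 64.2 and 58.1 in PD, 89.8, 103 and 94.5 in RS, 0.923, 49.1 and 3.97 in EES and 3.95, 2.09 and 5.62 in LES. The EES mean of 18 ± 27 RPKM for Ift43 is set by replicate 2 and was 2.45 RPKM without it. Ttc21b, a ciliopathy gene in humans, averaged 13.8 ± 8.82, 37.4 ± 0.661, 26.7 ± 1.12, 2.92 ± 3.65 and 1.62 ± 0.789 RPKM from LZ to LES. Wdr35 averaged 20.7 ± 10.8, 38.1 ± 0.917, 42.3 ± 1.81, 4.36 ± 4.72 and 2.66 ± 1.05 RPKM over the same stages. Without EES replicate 2 the EES mean was 0.828 RPKM for Ttc21b and 1.65 RPKM for Wdr35, both below their LES mean, and without LZ replicate 3 the LZ mean of Ttc21b was 8.74 RPKM.

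Wdr19 was the lowest IFT-A gene over the 15 libraries and the one called higher in RS vs PD. It was at 3.21, 2.53 and 6.54 RPKM in LZ, 7.53, 6.399 and 7.48 in PD, 14.8, 15.02 and 14.8 in RS, 2.21, 1.92 and 1.98 in EES and 2.23, 1.94 and 2.42 in LES. All RS libraries were above all PD libraries. Ift122 fell least of the IFT-A genes, with means of 20.7 ± 10.7, 59.99 ± 1.73, 56.97 ± 9.36, 21.5 ± 1.6 and 19.4 ± 1.08 RPKM from LZ to LES. Its share of the summed IFT-A level was 50.8% ± 7.2 in LES, against 17.1% ± 1.0 in RS.

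The IFT-B core genes were all lower in both elongating stages than in RS. Their sum was 153.6 ± 47.5 RPKM in LZ, 307.3 ± 8.9 in PD, 258.5 ± 29 in RS, 86.6 ± 55.6 in EES (54.8 without replicate 2) and 63.5 ± 10.2 in LES. Ift74 and Ift81, which together bind tubulin, were the highest 2 of the 11 over the 15 libraries. Ift74 was at 32.6, 26.0 and 48.6 RPKM in LZ, 82.9, 80.6 and 98.8 in PD, 80.2, 50.7 and 95.2 in RS, 16.5, 63.9 and 26.8 in EES and 22.8, 21.4 and 31.1 in LES. For Ift74 the EES and RS libraries overlapped, through EES replicate 2, whereas the LES and RS libraries did not. Ift81 averaged 26.1 ± 6.52, 30.9 ± 1.86, 40.5 ± 10.2, 19.5 ± 14.6 and 12.3 ± 1.46 RPKM from LZ to LES. Ift88, whose loss blocks assembly of cilia, averaged 20.4 ± 7.0, 18.6 ± 2.26, 19.7 ± 2.09, 5.71 ± 5.3 and 3.53 ± 0.979 RPKM, and Ift52, another core subunit, 14.2 ± 1.97, 18.1 ± 1.68, 16.9 ± 1.94, 2.61 ± 1.44 and 2.35 ± 0.389 RPKM. Without EES replicate 2 the EES mean was 11.2 RPKM for Ift81 and 2.67 RPKM for Ift88. Before elongation Ift88 and Ift52 were near level, with no call between neighbouring stages up to RS.

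Ift22, Ift27 and Ift46 rose most among the core genes in PD. Ift22, a Rab-like GTPase (chromosome 5, 136908150 to 136914509), averaged 8.37 ± 4.02, 41.3 ± 2.12, 33.6 ± 1.97, 14.6 ± 2.17 and 14.1 ± 0.587 RPKM from LZ to LES and kept 41.9% of its RS mean in LES, the highest share of the genes called lower. Ift27, also a Rab-like GTPase, was at 1.403, 1.18 and 4.81 RPKM in LZ, 13.3, 12.5 and 9.18 in PD, 6.93, 8.199 and 7.55 in RS, 0.540, 3.61 and 0.793 in EES and 1.13, 0.927 and 1.25 in LES. All PD libraries of Ift27 were above all LZ libraries. Ift46 averaged 6.07 ± 2.45, 32.1 ± 0.939, 19.1 ± 2.63, 2.04 ± 0.97 and 1.96 ± 0.476 RPKM.

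Hspb11, the subunit that pairs with Ift27, was at 11.46, 9.36 and 10.5 RPKM in LZ, 7.92, 7.44 and 5.80 in PD, 5.77, 4.18 and 3.95 in RS, 0.165, 2.05 and 0.411 in EES and 0.334, 0.199 and 0.573 in LES. Its mean was highest in LZ, where that of Ift27 was 2.46 ± 2.04 RPKM. Ttc26 averaged 17.1 ± 4.28, 16.8 ± 1.05, 9.56 ± 0.248, 1.32 ± 1.26 (0.608 without replicate 2) and 0.958 ± 0.383 RPKM from LZ to LES. Its mean was highest in LZ only with LZ replicate 3, and was 14.8 RPKM without it, below PD. The paralogous subunit genes Ttc30a1 and Ttc30b peaked in different stages. Ttc30a1 was at 5.74, 5.91 and 18.2 RPKM in LZ, 39.9, 34.7 and 29.4 in PD, 18.7, 15.9 and 15.8 in RS, 0.356, 3.77 and 0.949 in EES and 1.06, 0.661 and 2.07 in LES. Ttc30b was at 1.83, 2.18 and 3.98 RPKM in LZ, 9.44, 8.41 and 7.89 in PD, 15.99, 14.5 and 13.7 in RS, 0.161, 1.88 and 0.452 in EES and 0.657, 0.237 and 0.504 in LES. Every PD library exceeded every RS library for Ttc30a1, and the order was the opposite for Ttc30b, but neither passed the threshold in RS vs PD. These 2 genes and Ttc30a2 are near-identical: of the 50-base words in the transcripts of Ttc30a1, 18.9% also occur in those of Ttc30b and 28.3% in those of Ttc30a2, so reads may have been placed on the wrong copy and their separate levels are uncertain.

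The peripheral IFT-B genes divided into 4 that fell in elongating spermatids and 2, Ift172 and Cluap1, that did not. Ift172 (chromosome 5, 31253279 to 31291391), the largest IFT-B subunit, was the highest of all 35 genes over the 15 libraries. It was at 8.21, 9.47 and 25.2 RPKM in LZ, 56.9, 68.0 and 63.7 in PD, 44.8, 79.2 and 57.8 in RS, 90.4, 59.9 and 82 in EES and 90.6, 83.4 and 87.2 in LES. All LES libraries were above all RS libraries, and EES replicate 2, at 59.9 RPKM, lay within the RS range. Cluap1 was at 16.1, 15.1 and 21.3 RPKM in LZ, 18.1, 17.04 and 16.2 in PD, 17.3, 16.9 and 20.8 in RS, 26.7, 34.2 and 28.9 in EES and 26.1, 27.5 and 27.2 in LES. All libraries of the elongating stages were above all RS libraries for Cluap1. The level of Cluap1 is uncertain, since 22.4% of its annotated exon bases lie also in Gm20695 on the same strand and 16.1% in 1700016D08Rik on the opposite strand (GENCODE M21), and no source used here says whether counting used the strand.

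The other peripheral genes fell to between 12.7% and 38.9% of their RS mean in LES. Ift20, which also works at the Golgi, was at 21.4, 18.5 and 29.7 RPKM in LZ, 47.6, 42.6 and 42.2 in PD, 13.2, 17.1 and 13.4 in RS, 0.789, 3.96 and 1.07 in EES and 1.75, 1.12 and 2.70 in LES. Ift80 was at 10.1, 8.56 and 17.5 RPKM in LZ, 18, 18.7 and 18.9 in PD, 6.05, 6.11 and 6.65 in RS, 1.91, 3.25 and 2.08 in EES and 2.41, 1.84 and 3.07 in LES. Both were thus lower in every RS library than in every PD library. Traf3ip1, which binds microtubules and was the lowest of the peripheral genes over the 15 libraries, was at 6.28, 5.11 and 10.6 RPKM in LZ, 7.50, 9.53 and 9.93 in PD, 12.6, 25.6 and 17.02 in RS, 1.80, 7.15 and 2.52 in EES and 2.22, 2.44 and 2.52 in LES. Ift57 averaged 6.87 ± 2.0, 13.8 ± 0.583, 24.7 ± 1.42, 11.0 ± 5.78 and 8.64 ± 0.106 RPKM. The sum of the peripheral genes, Ift172 included, was 165.5 ± 4.04 RPKM in PD, 142.9 ± 26.9 in RS, 126.6 ± 1.85 in EES and 129.3 ± 3.86 in LES. Ift172 took 45.3% ± 2.5 of the summed level of all 17 IFT-B genes in LES, against 15.1% ± 4.2 in RS.

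The 7 BBSome subunits on the list parted in elongating spermatids into Bbs5 and Bbs9, which stayed high, and 5 that fell. Bbip1, also of the BBSome, was counted with the partner genes and is not in the sums and shares below. It averaged 27.97 ± 3.65 RPKM in RS and 2.57 ± 0.945 in LES. The sums that follow are of the 7. The sum was 62.3 ± 18.4 RPKM in LZ, 93.4 ± 6.82 in PD, 105.6 ± 14.4 in RS, 93.3 ± 2.13 in EES and 92.6 ± 10.9 in LES. The median subunit was at 7.65, 8.44, 14.6, 1.26 and 1.28 RPKM in the same order. Bbs5 and Bbs9 carried the sum in the elongating stages: Bbs5 took 46.7% ± 5.3 of it in LES and 15.7% ± 1.5 in RS, and Bbs9 46.5% ± 4.3 in LES and 32.9% ± 9.1 in RS. Bbs5, the subunit that binds phosphoinositides (chromosome 2, 69646848 to 69667571), was at 6.39, 5.30 and 8.65 RPKM in LZ, 3.46, 3.55 and 3.71 in PD, 17.3, 14.9 and 17.1 in RS, 42.5, 52.5 and 45.6 in EES and 43.5, 42.4 and 42.9 in LES. The PD libraries were its lowest and the elongating libraries its highest, with no overlap between neighbouring stages up to EES. Bbs9, a scaffold subunit (chromosome 9, 22475559 to 22888283), was at 14.9, 14.97 and 22.6 RPKM in LZ, 42.2, 35.2 and 31.5 in PD, 52.8, 26.1 and 27.7 in RS, 45.4, 25.7 and 40.8 in EES and 46.5, 33.5 and 50.2 in LES. For Bbs9 the RS, EES and LES libraries overlapped.

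The other 5 subunits averaged under 4 RPKM in LES. Bbs4 was at 3.71, 2.90 and 3.999 RPKM in LZ, 9.13, 7.73 and 8.47 in PD, 6.39, 7.57 and 6.79 in RS, 0.230, 0.709 and 0.331 in EES and 0.586, 0.276 and 0.633 in LES. Ttc8, the lowest subunit, was at 2.96, 3.17 and 5.67 RPKM in LZ, 6.93, 6.72 and 5.99 in PD, 2.09, 1.74 and 1.71 in RS, 0.269, 0.309 and 0.235 in EES and 0.389, 0.200 and 0.590 in LES. For both genes all elongating libraries were below all RS libraries. Bbs1, which contacts Arl6, averaged 7.65 ± 1.9, 6.596 ± 0.0671, 4.43 ± 1.08, 0.385 ± 0.236 and 0.414 ± 0.123 RPKM from LZ to LES. Bbs2 averaged 13.4 ± 5.41, 11.6 ± 0.591, 14.6 ± 2.14, 1.26 ± 0.562 and 1.28 ± 0.387 RPKM, and Bbs7, with which it forms a dimer, 9.54 ± 3.14, 20.3 ± 0.979, 25.8 ± 3.14, 6.83 ± 6.26 and 3.75 ± 0.838 RPKM. Without EES replicate 2 the EES mean was 0.249 RPKM for Bbs1 and 3.24 RPKM for Bbs7.

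**Figure D2:**
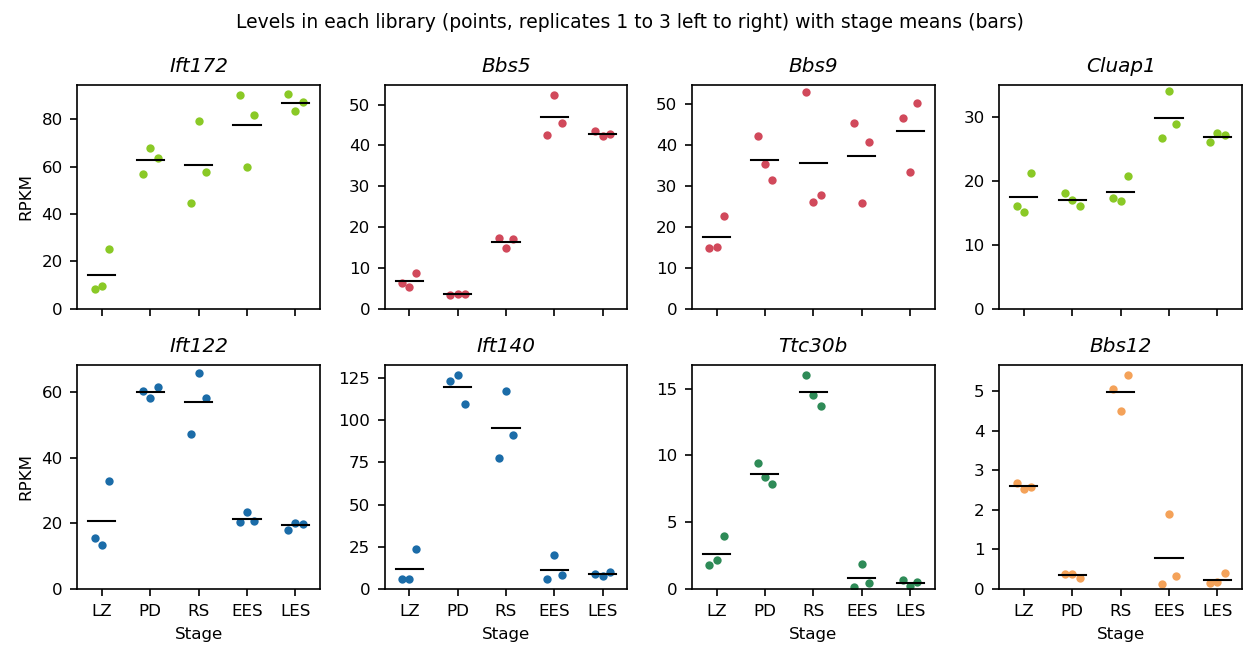
Level in RPKM (vertical axes, each from 0) of 8 genes in each library of the 5 stages (horizontal axes), with the stage mean as a bar. Ift172, Bbs5, Bbs9 and Cluap1 in the top row are as high in EES and LES as in RS or higher, whereas Ift122, Ift140, Ttc30b and Bbs12 in the bottom row are lower in both.

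The 3 chaperonin-like genes, which fold and assemble BBSome subunits, each had a course of its own before elongation. Bbs12 was at 2.67, 2.53 and 2.57 RPKM in LZ, 0.373, 0.386 and 0.290 in PD, 5.059, 4.5 and 5.396 in RS, 0.118, 1.90 and 0.325 in EES and 0.142, 0.177 and 0.404 in LES. It was thus low in every PD library, between 2 stages in which it was higher in every library. Bbs10 was at 8.33, 8.32 and 10.6 RPKM in LZ, 14.5, 12.8 and 15.2 in PD, 17.7, 13.7 and 14.9 in RS, 0.354, 1.29 and 0.635 in EES and 0.948, 0.701 and 1.12 in LES. Mkks averaged 5.07 ± 0.529, 3.31 ± 0.731, 1.27 ± 0.188, 0.174 ± 0.14 (0.0943 without replicate 2) and 0.246 ± 0.13 RPKM from LZ to LES; 29.3% of its exon bases lie also in AL731706.1 on the same strand. Arl6, the GTPase that brings the BBSome to membranes, was at 17.6, 14.1 and 19.3 RPKM in LZ, 13.9, 12.1 and 13.0 in PD, 35.7, 26.8 and 28.3 in RS, 0.763, 8.14 and 1.58 in EES and 1.84, 1.09 and 2.00 in LES. Lztfl1, which regulates BBSome traffic, was at 8.25, 6.30 and 11.6 RPKM in LZ, 20.6, 18.8 and 21.7 in PD, 30.9, 14.8 and 26.9 in RS, 0.317, 8.99 and 1.13 in EES and 1.24, 0.669 and 1.93 in LES. Both were highest in RS on average, and EES replicate 2 was the one elongating library above 5 RPKM for either gene.

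**Figure D3:**
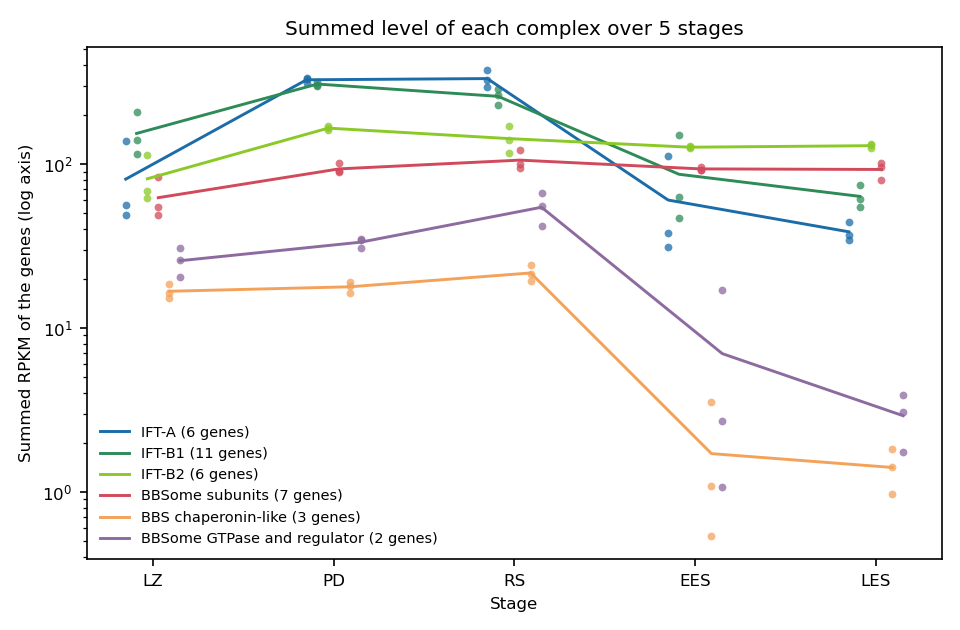
Summed RPKM (vertical axis, logarithmic) of the genes of each complex in the 5 stages (horizontal axis); points are the 3 libraries of a stage and lines join the stage means. IFT-A and the IFT-B core fall below their RS level in EES and LES, while the sums of the peripheral IFT-B genes and of the BBSome subunits stay near theirs, at 129.3 and 92.6 RPKM in LES.

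PD vs LZ asked which of these genes rise as spermatocytes enter pachytene. In limma 14 of the 35 were higher and 1, Bbs12, was lower, against 25.5% and 35.8% of all genes tested. The 14 are Ift43, Ift122 and Ift140 of IFT-A, Ift22, Ift27, Ift46, Ift74, Ttc30a1 and Ttc30b of the IFT-B core, Ift57 and Ift172 of its periphery, and the BBSome subunits Bbs4, Bbs7 and Bbs9. The median log2 fold change of the 35 was 0.96, against -0.36 for all genes tested, and 30 of the 35 lay above the latter value. By complex the median was 1.64 for IFT-A, 1.33 for the IFT-B core, 0.82 for the periphery, 0.79 for the BBSome subunits and -0.63 for the chaperonin-like genes; differences between complexes were not tested. The largest log2 fold changes were 3.66 ± 0.51 for Ift140 (SE; adjusted p = 2.7e-05, limma), 2.94 ± 1.01 for Ift43 (adjusted p = 0.0193) and 2.52 ± 0.61 for Ift27 (adjusted p = 0.00237). Bbs12 had -2.86 ± 0.70 (adjusted p = 0.00263). For 27 of the 35 the PD and LZ libraries did not overlap, against 81.1% of all genes tested.

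The PD vs LZ counts depended on single LZ libraries and on scaling. Without LZ replicate 3, 17 genes were higher (27.1% of all genes), with Ttc21b, Ttc8 and Wdr19 added, and without it and EES replicate 2 together 20 were (29.4%). Without EES replicate 2 alone, Lztfl1 and Ttc21b were added. Without LZ replicate 1 the count was 8 (23.7%) and without LZ replicate 2 it was 7 (22.6%), so that the members' share was then near that of all genes. In both cases Ift43, Ift57, Ttc30a1, Ttc30b, Bbs7 and Bbs9 were no longer called. Reads in table genes made up 73.44% to 77.03% of a PD library and 48.43% to 64.93% of an LZ library. Scaled to these reads, 7 genes were higher and 2 lower (Bbs12 and Bbs5), against 20.2% and 42.5% of all genes. With library medians centred 22 were higher and 1 lower, against 33.5% and 29.8% of all genes. Sertoli cell markers also differed between these groups: 0 of 11 reached 1 RPKM in PD, where they summed to 1.3 to 1.67 RPKM, and 7 of 11 did in LZ, where they summed to 58.7 to 108 RPKM. Sox9, Wt1, Rhox5, Gata4 and Fshr were under 0.1 RPKM in every PD library. The 5 spermatogonial markers summed to 0.815 to 0.921 RPKM in PD, against 21.3 to 27.2 RPKM in LZ. Much of the LZ sum was Stra8, at a mean of 13.5 RPKM, which also marks LZ cells. Of the 4 tested, 3 were called lower in PD vs LZ and 1, Gfra1, higher (0.116 RPKM in LZ, 0.608 in PD). The part of Sertoli cells and spermatogonia in the differences was not tested.

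RS vs PD covered the end of meiosis and the start of tail growth, and most IFT and BBSome genes showed no call. In limma 3 were higher and 4 lower, against 23.4% and 15.2% of all genes tested, and the median log2 fold change was -0.09, against 0.02 for all genes. The 3 higher were Bbs12 (3.80 ± 0.70, adjusted p = 0.00057), Bbs5 (2.20 ± 0.20, adjusted p = 1.34e-06) and Wdr19 (1.06 ± 0.28, adjusted p = 0.00751). The 4 lower were Ttc8 (-1.82 ± 0.35, adjusted p = 0.000765), Ift20 (-1.61 ± 0.48, adjusted p = 0.0149), Ift80 (-1.56 ± 0.29, adjusted p = 0.000592) and Mkks (-1.36 ± 0.51, adjusted p = 0.0437). Among the genes with no call, Arl6, which was called higher without EES replicate 2, had 1.21 ± 0.60 (adjusted p = 0.124) and Traf3ip1 0.98 ± 0.44 (adjusted p = 0.0872). The libraries of RS and PD did not overlap for 24 of the 35, against 72.9% of all genes tested. The call for Wdr19 was lost with log2(RPKM + 1), with centred medians, with quantile normalization and without PD replicate 2. That for Mkks was lost with log2(RPKM + 1), with no filter, with the replicate number as a block, without any single LZ, PD or RS library and without EES replicate 3. Without LZ replicate 3 and EES replicate 2 together, Ttc30a1 was also called lower.

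EES vs RS gave the largest change. In limma 31 of the 35 genes were lower and 1, Bbs5, was higher, against 54.9% and 15.8% of all genes tested. All 6 IFT-A genes, all 11 core IFT-B genes, 4 of 6 peripheral ones, 5 of 7 BBSome subunits, all 3 chaperonin-like genes, Arl6 and Lztfl1 were lower. The median log2 fold change was -3.07, against -1.42 for all genes tested. It was -3.55 for IFT-A, -2.81 for the IFT-B core, -1.35 for the periphery, -2.73 for the BBSome subunits and -3.52 for the chaperonin-like genes. The largest falls were those of Ttc30b (-4.79 ± 0.65, adjusted p = 2.42e-05), Bbs10 (-4.51 ± 0.36, adjusted p = 3.22e-07) and Bbs4 (-4.15 ± 0.38, adjusted p = 9.42e-07). Bbs5 was higher by 1.51 ± 0.20 (adjusted p = 1.62e-05). The genes without a call were Cluap1 (0.70 ± 0.19, adjusted p = 0.00377, under the fold threshold), Ift172 (0.37 ± 0.36, adjusted p = 0.356) and Bbs9 (0.11 ± 0.31, adjusted p = 0.769). Libraries did not overlap for 31 of the 35, against 76.3% of all genes. The counts were the same 31 and 1, with all 32 calls shared, when EES replicate 2 was left out.

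LES vs EES gave no call in either direction, and 0 of the 35 had an unadjusted p under 0.05 in limma or in voom on recovered reads. Over all genes tested, limma called 1 gene higher (0.00754%) and 0 lower (0%), with 919 at an unadjusted p under 0.05. Differences between these stages were thus not detectable with libraries that vary as these do. For 1 of the 35, Ift122, the LES and EES libraries did not overlap, against 8.16% of all genes tested.

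LES vs RS, which shares the RS libraries with EES vs RS, called 31 genes lower and 1 higher, against 55.4% and 17.4% of all genes tested. The median log2 fold change was -2.88, against -1.43 for all genes, and 6 of the 35 lay above the latter value. The largest falls were those of Ttc30b (-5.07 ± 0.65, adjusted p = 1.6e-05), Ift43 (-4.73 ± 1.01, adjusted p = 0.000777) and Bbs12 (-4.45 ± 0.70, adjusted p = 7.86e-05). Bbs5 was higher by 1.39 ± 0.20 (adjusted p = 3.3e-05). Ift172 had 0.56 ± 0.36 (adjusted p = 0.164), Cluap1 0.56 ± 0.19 (adjusted p = 0.0143) and Bbs9 0.34 ± 0.31 (adjusted p = 0.326). As a share of the RS mean, the LES mean was 261% for Bbs5, 147% for Cluap1, 144% for Ift172 and 122% for Bbs9, and between 3.16% (Ttc30b) and 41.9% (Ift22) for the other 31. Libraries did not overlap for 34 of the 35, all but Bbs9, against 85.7% of all genes.

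Levels in the elongating stages are shares of the reads of a library. Tnp1, Tnp2, Prm1 and Prm2, which encode transition proteins and protamines, summed to 93800 to 103000 RPKM in LES and 45200 to 121000 RPKM in EES, against 645 to 1420 RPKM in RS. These 4 genes are short, at 437 to 894 exon bases, so their RPKM stand for fewer reads than in longer genes. Their highest counts in any of the 15 libraries were 1688799, 1602590, 1623189 and 2592647 reads, in that order. EES and LES libraries held 90.6 to 121.2 M reads. In shares of reads, less RNA per cell, fewer cells with an RNA and dilution by other RNAs cannot be told apart. With library medians centred, which removes the shift of -1.42 and -1.43 common to all genes, 23 genes were lower and 4 higher in EES vs RS, against 28% and 32.5% of all genes. In LES vs RS 22 were then lower and 4 higher, against 27.5% and 35.3% of all genes. The 4 higher in both were Bbs5, Bbs9, Cluap1 and Ift172, and Ift122, Ift22, Ift57, Ift74, Ift80, Ift81 and Ift88 were among those no longer called lower. Sertoli markers were higher in LES, where they summed to 13 to 48.7 RPKM, and in EES, where they summed to 5.99 to 20.4 RPKM, than in RS, where they summed to 1.98 to 2.31 RPKM. Of the 11, 6 reached 1 RPKM in LES and 0 did in RS, and Sox9, Amh and Fshr were under 0.1 RPKM in every LES library. Macrophage markers summed to 2.2 to 29.4 RPKM in LES, against 3.75 to 4.15 RPKM in RS. Their part in the levels was not tested.

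**Figure D4:**
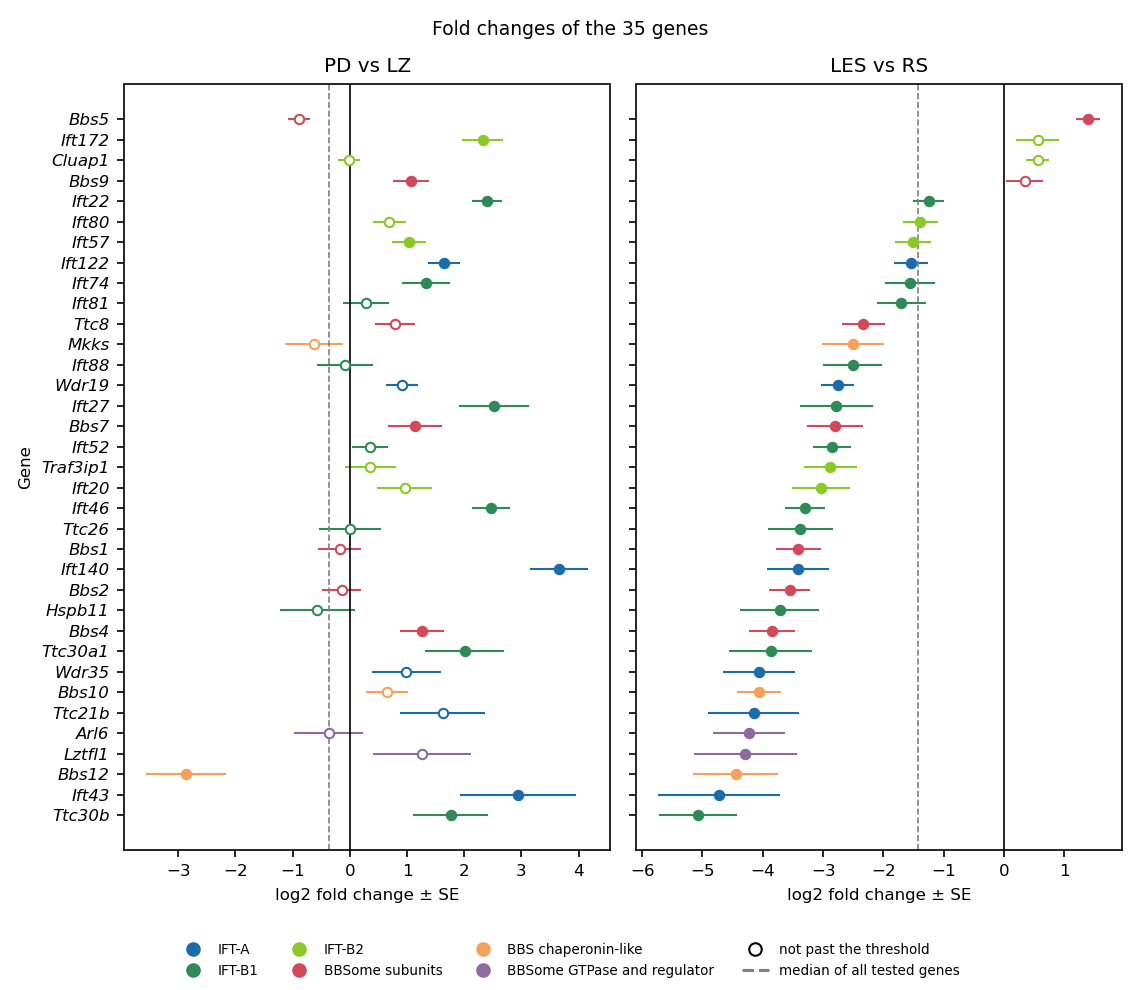
Log2 fold change (horizontal axes) with its SE in limma for the 35 genes, in PD vs LZ on the left and LES vs RS on the right, ordered by the latter; filled points pass the threshold, open points do not, and the dashed line is the median of all genes tested. In PD vs LZ 30 genes lie above the dashed line, and in LES vs RS 29 lie below it while Bbs5, Ift172, Cluap1 and Bbs9 lie above 0.

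Most partner genes of the pathway also fell in elongating spermatids, and a few rose. The list of 47 holds motors, cargo adaptors and GTPases, transition zone genes and transcriptional regulators, and 45 were tested; Tulp3 and Cc2d2a did not pass the filter. In PD vs LZ 18 were higher and 7 lower of 45, against 25.5% and 35.8% of all genes, and in RS vs PD 11 were higher and 4 lower, against 23.4% and 15.2%. In both EES vs RS and LES vs RS 6 were higher and 31 lower, beside 15.8% and 17.4% of all genes that were higher and 54.9% and 55.4% that were lower. In LES vs RS the median log2 fold change was -2.03 over the partners. The 6 higher in both elongating stages were Kif17, Kifap3, Dynll1, Dynll2, Rab28 and Rfx3. Of 14 transition zone genes tested, 13 were lower in LES vs RS and 0 higher (B9d1, Mks1 and Tctn2 among the lower ones), and of 14 motor genes 9 were lower and 4 higher.

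Among the motors, Dync2h1, Dync2li1, Tctex1d2, Wdr34 and Wdr60 of the IFT dynein, Dynlrb2, and the kinesin genes Kif3a, Kif3b and Kif3c were lower in LES vs RS, whereas Kif17, Kifap3, Dynll1 and Dynll2 were higher. Dync2li1, the light intermediate chain of the IFT dynein, was at 0.942, 0.534 and 1.64 RPKM in LES, against 30.6, 30.7 and 25.9 in RS (log2 fold change -4.93 ± 0.87, adjusted p = 0.000178, limma). Tctex1d2, a light chain of that dynein, was at 2.64, 1.199 and 3.84 RPKM in LES, against 52.1, 54.9 and 50.4 in RS (-4.51 ± 0.91, adjusted p = 0.000524). Wdr34, its intermediate chain, was lower by -4.53 ± 0.44 in EES vs RS (adjusted p = 1.37e-06). Kif17, a kinesin with a role in spermatid gene regulation as well, was at 192.5, 212 and 173 RPKM in LES, against 24.7, 37.4 and 33.3 in RS (2.61 ± 0.30, adjusted p = 7.02e-06). Dynll2, a light chain shared by several dyneins and myosin, was at 187, 186 and 183 RPKM in LES, against 10.8, 16.8 and 16.1 in RS (3.69 ± 0.38, adjusted p = 2.34e-06). Kifap3, the adaptor that joins Kif3a and Kif3b in the kinesin that moves IFT trains, was at 141.9, 148 and 147.5 RPKM in LES, against 46.4, 39.5 and 48.7 in RS (1.70 ± 0.20, adjusted p = 7.39e-06). Its partner Kif3a was at 6.62, 7.23 and 7.62 RPKM in LES, against 18.04, 26.8 and 21.6 in RS (-1.61 ± 0.28, adjusted p = 0.000165). The libraries of LES and RS did not overlap for any of these motors with values for both stages. Earlier, Dynlrb2 was higher in PD vs LZ (4.08 ± 0.99, adjusted p = 0.00231), while its paralogue Dynlrb1 was lower (-4.26 ± 0.53, adjusted p = 1.05e-05).

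The ciliary transcription factors were called higher at different stages. Rfx4 was at 20.8, 20.3 and 23.0 RPKM in PD, against 1.41, 1.56 and 8.32 in LZ (log2 fold change 3.01 ± 0.73, adjusted p = 0.00247, limma), and Rfx2 was also called higher in PD vs LZ. Foxj1, the master regulator of motile cilia, was at 70.5, 71.7 and 59.8 RPKM in RS, against 1.01, 0.885 and 1.72 in PD (5.85 ± 0.70, adjusted p = 1.47e-05). Rfx1 was at 8.95, 14.3 and 11.4 RPKM in RS, against 0.240, 0.250 and 0.496 in PD (5.14 ± 0.35, adjusted p = 1.98e-07). The course of Rfx1 had a minimum in PD, with stage means of 2.58, 0.329, 11.53, 14.8 and 8.51 RPKM from LZ to LES, and Rfx1 and Rfx3 were called lower in PD vs LZ. Rfx4, Foxj1 and Rfx1 each separated the stages given here without overlap. Of the 14 IFT and BBSome genes higher in PD, 12 have a promoter window and 4 of these hold a full X-box (Bbs4, Bbs7, Ift22 and Ift57), and of the 19 others with a window 4 do. Of the 27 with a window that were lower in LES, 8 hold a full X-box, and of Bbs5, Bbs9, Cluap1 and Ift172, which were not, 0 do, although Bbs5 and Ift172 hold a half-site outside the 150 bases printed. The windows follow an annotated start, and the starts used in these cells were not tested. De novo transcripts of the authors were set against the GENCODE M21 starts of each gene. Within 50 bases of any such start began 0 of 6 for Bbs5, 0 of 5 for Cluap1, 1 of 6 for Bbs9 and 1 of 2 for Ift172. Of genes with a full X-box, Bbs7 had 2 of 2 and Ift22 0 of 3. These starts may not be the RefSeq starts that the windows follow. Of 5 markers of multiciliated epithelium, Mcidas, which drives multiciliated cells, was under 0.1 RPKM in every library of the 5 stages. The others were not: Foxj1 and Ccno were called higher in RS vs PD, with Ccno at a mean of 2.15 RPKM in RS. Gmnc and Trp73 averaged 0.117 and 0.161 RPKM in RS and were not tested.

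The single libraries gave a second view of each spermatid stage, without a replicate check. RS23 was above the RS range for 13 of the 35 genes, below it for 15 and within it for 7. The highest ratio to the RS mean was that of Ift20, at 30.8 RPKM in RS23, against 13.2 to 17.1 RPKM in RS. The lowest was that of Hspb11, at 2.06 RPKM in RS23, against 3.95 to 5.77 RPKM in RS. PrmES was above the LES range for 23 genes, below it for 4 and within it for 8, and above the EES range for 12, below it for 3 and within it for 20. Ttc30b stood highest above it, at 2.46 RPKM in PrmES, against 0.237 to 0.657 RPKM in LES, and Ift22 lowest, at 6.35 RPKM in PrmES, against 13.5 to 14.7 RPKM in LES. Bbs5, at 73.1 RPKM in PrmES and 42.4 to 43.5 in LES, and Cluap1, at 52.3 RPKM in PrmES and 26.1 to 27.5 in LES, were higher, whereas Ift172, at 49.7 RPKM in PrmES and 83.4 to 90.6 in LES, was lower. Sertoli markers summed to 20 RPKM in RS23, where 6 of 11 reached 1 RPKM, against 1.98 to 2.31 RPKM in RS, where 0 did. They summed to 61.1 RPKM in PrmES, against 13 to 48.7 RPKM in LES, with 6 of 11 at 1 RPKM in both, and their part in the differences was not tested. The single libraries differ from the others also in staining, so the source of a difference cannot be told apart.

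The authors' de novo transcript assembly gave a second count of the same genes. All 35 had a de novo locus on their strand, with 113 transcripts in all and a median of 2. For 30 of them the locus held no other coding gene on that strand. Coding genes on the opposite strand were not counted in this. Opposite-strand loci that hold one cover exon bases of some of the 30, as for Ift20 (Tmem97, 39.7%) and Wdr19 (Rfc1, 22.3%). The LES mean was lower than the RS mean for 32 loci and higher for 3, and the direction was that of the gene table for 34 of the 35. The 3 higher were those of Bbs5, Ift172 and Bbs9. The Bbs5 locus, with 6 transcripts, was at 63 ± 0.473 RPKM in LES, against 20.2 ± 1.78 in RS (311%). The Ift172 locus was at 63.6 ± 2.64 RPKM in LES, against 45.5 ± 12.6 in RS (140%), and the Bbs9 locus at 47.8 ± 9.7 RPKM in LES, against 39.3 ± 16.5 in RS (122%). An opposite-strand locus that holds Krtcap3 covers 2.6% of the exon bases of Ift172. It was at 89.6 ± 4.83 RPKM in LES, against 12.3 ± 1.74 in RS (729%), and its part in the Ift172 level was not tested. The exception in direction was Cluap1, whose locus on its own strand was at 8.36 ± 0.159 RPKM in LES, against 11.5 ± 1.13 in RS (72.7%). A de novo locus on the opposite strand, which covers 22% of the exon bases of Cluap1 and holds 1700037C18Rik, was at 21.97 ± 0.871 RPKM in LES, against 6.25 ± 0.559 in RS (351%). The tables thus differ in direction for Cluap1, and since no source used here says whether counting used the strand, neither locus value is shown to come from its strand alone. In the LES libraries the reads counted in de novo genes came to 105.06% to 106.3% of the library total, which is more than 1 count for each read. Whether the 2 loci at Cluap1 share reads was not tested. In the other comparisons the locus means had the direction of the call for 14 of 15 genes called in PD vs LZ, 6 of 7 in RS vs PD and all 32 in EES vs RS. The exception in PD vs LZ was Bbs12, whose locus was at 1.808 RPKM in PD, against 1.732 in LZ, and that in RS vs PD was Ift20, whose locus was at 222.5 RPKM in RS, against 211 in PD. The lower call of each in the gene table was thus not seen in its de novo locus. For Ift20 this comparison is limited. Its gene table means were 14.6 RPKM in RS and 44.2 in PD, far below those of the locus. An opposite-strand locus that holds Tmem97 and covers 39.7% of the exon bases of Ift20 was at 449.1 RPKM in RS and 408.8 in PD. How many reads these 2 loci share was not tested. Genes without a call were not compared in this way. One of them, Arl6, also went the other way in RS vs PD. Its locus, which holds Crybg3 as well, was at 18.67 RPKM in RS and 36.95 in PD. The gene table means of Arl6 were 30.29 RPKM in RS and 13.01 in PD.

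**Figure D5:**
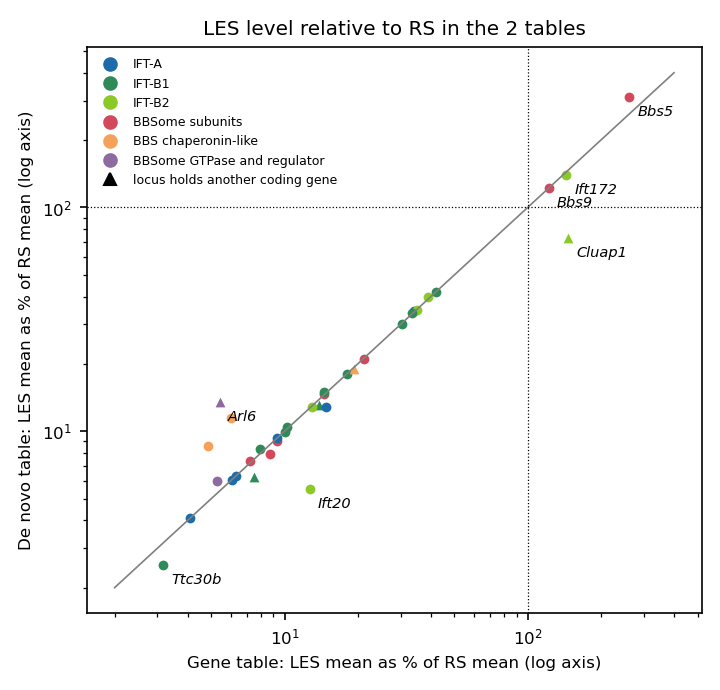
LES mean as a percentage of the RS mean in the gene table (horizontal axis) and for the best-matching de novo locus on the same strand (vertical axis), both logarithmic. Each point is 1 of the 35 genes, and triangles mark loci that hold another coding gene on the same strand. The grey line marks equal values and the dotted lines 100%. Bbs5, Ift172 and Bbs9 lie above 100% on both axes, and Cluap1, at 147% and 72.7%, lies on either side of it.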

How the data were processed

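RNA levels were read from 2 tables the authors deposited, one of reference genes with NCBI Gene IDs and one of de novo genes, for 17 samples. The deposited values are log2 values, log2(100 × RPKM + 1); times exon length, they came to whole reads (within 0.01 read) for 100% of genes of either table, which gave library totals and lengths. RPKM were computed from the deposited log2 values by undoing this, so the pseudocount is 0.01 RPKM. Trim Galore, STAR and the builds GRCm38 and mm10 are named in the submitters' processing notes, without versions or counting rules. The deposited de novo annotation holds transcript and exon positions and names StringTie 1.3.4d as its assembler, per the file headers.

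The 15 libraries of the 5 stages were fitted together with limma 3.58.1 under R 4.3.3, by a linear model with a mean-variance trend, for 13260 genes at 1 RPKM or more in at least 3 libraries, and p-values were adjusted by Benjamini-Hochberg over all of them. The fit was tested on simulated data. Fold changes are on the log2(100 × RPKM + 1) scale and understate changes of low genes. The 35 members and all lists were chosen with earlier results of these data known. Named by rule were the 3 largest called changes each way per comparison, the highest and lowest gene of each complex, both Ttc30 genes, and the 2 largest partner changes each way; the other genes get stage means. Cluap1, Kifap3 and Kif3a are also given by library and were chosen after their values were seen. Loci were compared with GENCODE M21, and promoters and coordinates came from RefSeq (GRCm38.p6). Alternatives were other scalings, pseudocount, filter and threshold, the replicate block and leaving out libraries; voom was added after seeing the data.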

Additional observations from a re-analysis of the deposited data

How the results depend on the processing

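No call turned its direction under any alternative. In PD vs LZ 14 genes were higher in the reported fit (25.5% of all genes), 22 with centred medians (33.5%) and 7 scaled to reads in genes (20.2%). With single libraries left out 7 to 17 were higher (22.6% to 27.1% of all genes). In the reported fit 1 was lower (35.8%). The count lower was 2 with no fold threshold (39.2%), with quantile normalization (31.7%) or scaled to reads in genes (42.5%). It was 1 to 2 with single libraries left out (33.5% to 37.6%). In both EES vs RS and LES vs RS 1 gene was higher, 2 with no fold threshold or quantile normalization and 4 with centred medians. Of all genes, 15.8%, 17.9%, 25.5% and 32.5% were higher in EES vs RS under these 4 settings, in that order. The cause was not tested, except that no fold threshold widens the call by construction. The calls lower in EES vs RS ranged from 23 (centred medians) to 31, and in LES vs RS from 22 to 31. Ift43 in PD vs LZ missed the threshold without LZ replicate 1 (adjusted p = 0.0644) and without LZ replicate 2 (adjusted p = 0.061, limma). Same-numbered libraries did not pair: correlations of their deviations ranged from -0.252 to 0.242. With the replicate number as a block, 13 genes were higher and 1 lower in PD vs LZ, against 25.2% and 35.5% of all genes. In RS vs PD 3 were then higher and 3 lower, against 23.3% and 14.8% of all genes. The counts in EES vs RS and LES vs RS were 1 and 31, as in the reported fit. Genes in the elongating stages rest on as few as 20 reads a library (Mkks), which limits the precision of the lowest levels.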
